A study of Mus musculus with 46 samples.

Results

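Autophagy and lysosome genes were followed through androgen removal and androgen treatment of mouse skeletal muscle. The 10 genes were *Ulk1*, *Becn1*, *Map1lc3a*, *Map1lc3b*, *Gabarapl1*, *Sqstm1*, *Bnip3*, *Bnip3l*, *Ctsl* and *Tfeb*. They were chosen with earlier results of these data known, and their symbols were matched to the Ensembl identifiers of the count tables. All 10 were found among the 17514 genes counted in the ORX experiment and among the 16987 genes counted in the DHT experiment.

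Read counts per gene from whole muscle were compared in 8 groups of C57BL6 mice, named C57BL/6J in the paper's methods. The mice were WT or had a knockout (KO) of *Actn3*, which encodes the fast-fibre protein α-actinin-3. In the ORX experiment, males aged 8 to 10 weeks had their testes removed (orchidectomy, ORX) or a sham operation that left the testes in place, and the gastrocnemius was taken 12 weeks later. Libraries numbered 6 in each of WT-sham, WT-ORX and KO-sham and 5 in KO-ORX, whose sixth labelled sample was not analysed here. In the DHT experiment, females aged 4 to 5 weeks received a silastic implant that was empty or held 10 mg of dihydrotestosterone (DHT), and the spinalis was taken after 6 weeks. There were 5 libraries for each genotype with an empty implant (WT-empty, KO-empty) and 6 for each with DHT (WT-DHT, KO-DHT). *Actn3* was lost in the whole animal and not in muscle alone. Sex, muscle, age and treatment time differ between the experiments and cannot be told apart, so each experiment was fitted on its own. Every DHT column carries an identifier of its own, but no label states that each library is another animal, so the p-values measure only the spread between these samples, which may be technical.

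Autophagy encloses cytoplasm, protein aggregates or mitochondria in a double membrane that fuses with the lysosome, where hydrolases digest the contents. A kinase complex around ULK1 and a lipid kinase complex around Beclin 1 start the membrane, ATG8 proteins of the LC3 and GABARAP families are attached to it by lipid, and receptors bind both cargo and ATG8 proteins. In skeletal muscle the pathway is known for the turnover of protein and mitochondria during fasting, denervation and other forms of atrophy, and transcription factors such as TFEB and the FoxO family are known to act on its genes. Messenger RNA does not measure the flow through the pathway.

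The depth of the libraries was between 43408000 and 50273700 counts in WT-sham, 39882400 and 55369900 in WT-ORX, 29511400 and 37486700 in KO-sham, and 26653900 and 48521600 in KO-ORX. Among the spinalis libraries it was between 37290000 and 51183200 in WT-empty, 34812400 and 53899300 in WT-DHT, 42478000 and 47807800 in KO-empty, and 34902000 and 51652800 in KO-DHT. The KO-sham and WT-sham depths did not overlap, with KO-sham the lower. The least counted of the 10 genes, *Ulk1*, still had between 425 and 1252 counts in each library.

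*Actn3* itself was read first. It had between 271459 and 344665 counts in WT-sham, 334134 and 522718 in WT-ORX, 357573 and 518011 in WT-empty, and 222975 and 393368 in WT-DHT. In the KO groups it had between 1301 and 1653 counts in KO-sham, 1051 and 2702 in KO-ORX, 2643 and 3913 in KO-empty, and 2133 and 3407 in KO-DHT. Each library therefore matched its genotype label. Markers of muscle fibres were all present (12 of 12 in both tables, none at 0 counts in any library), with a summed mean of 192864 to 291767 counts per 1e6 (CPM) in the 8 groups and *Ttn*, the giant spring protein titin, as the most abundant.

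Levels were compared between genes as CPM per kilobase of exon, since a longer transcript gives more reads. In WT-sham, *Sqstm1*, which encodes the receptor p62, led with 124 CPM per kilobase and stood at the 98.6 percentile of all genes, followed by *Map1lc3a* (LC3A) at 92.2, *Bnip3* at 46.9, *Gabarapl1* at 24.9 and the protease gene *Ctsl* at 17.2. The level per kilobase was 13.0 for *Map1lc3b* (LC3B), 11.7 for *Bnip3l*, 6.86 for *Tfeb*, 4.81 for *Becn1* and 2.65 for *Ulk1*. *Map1lc3b* and *Bnip3l* were the only neighbours in this order whose WT-sham libraries overlapped. *Sqstm1* and then *Map1lc3a* led in all 8 groups, though their libraries overlapped in KO-sham and KO-empty, and *Ulk1* was last in all 8, overlapping *Becn1* in WT-ORX. In WT-empty, *Ctsl* ranked above *Gabarapl1* (25.0 against 18.4 CPM per kilobase, with no overlap of the libraries).

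**Figure D1:**
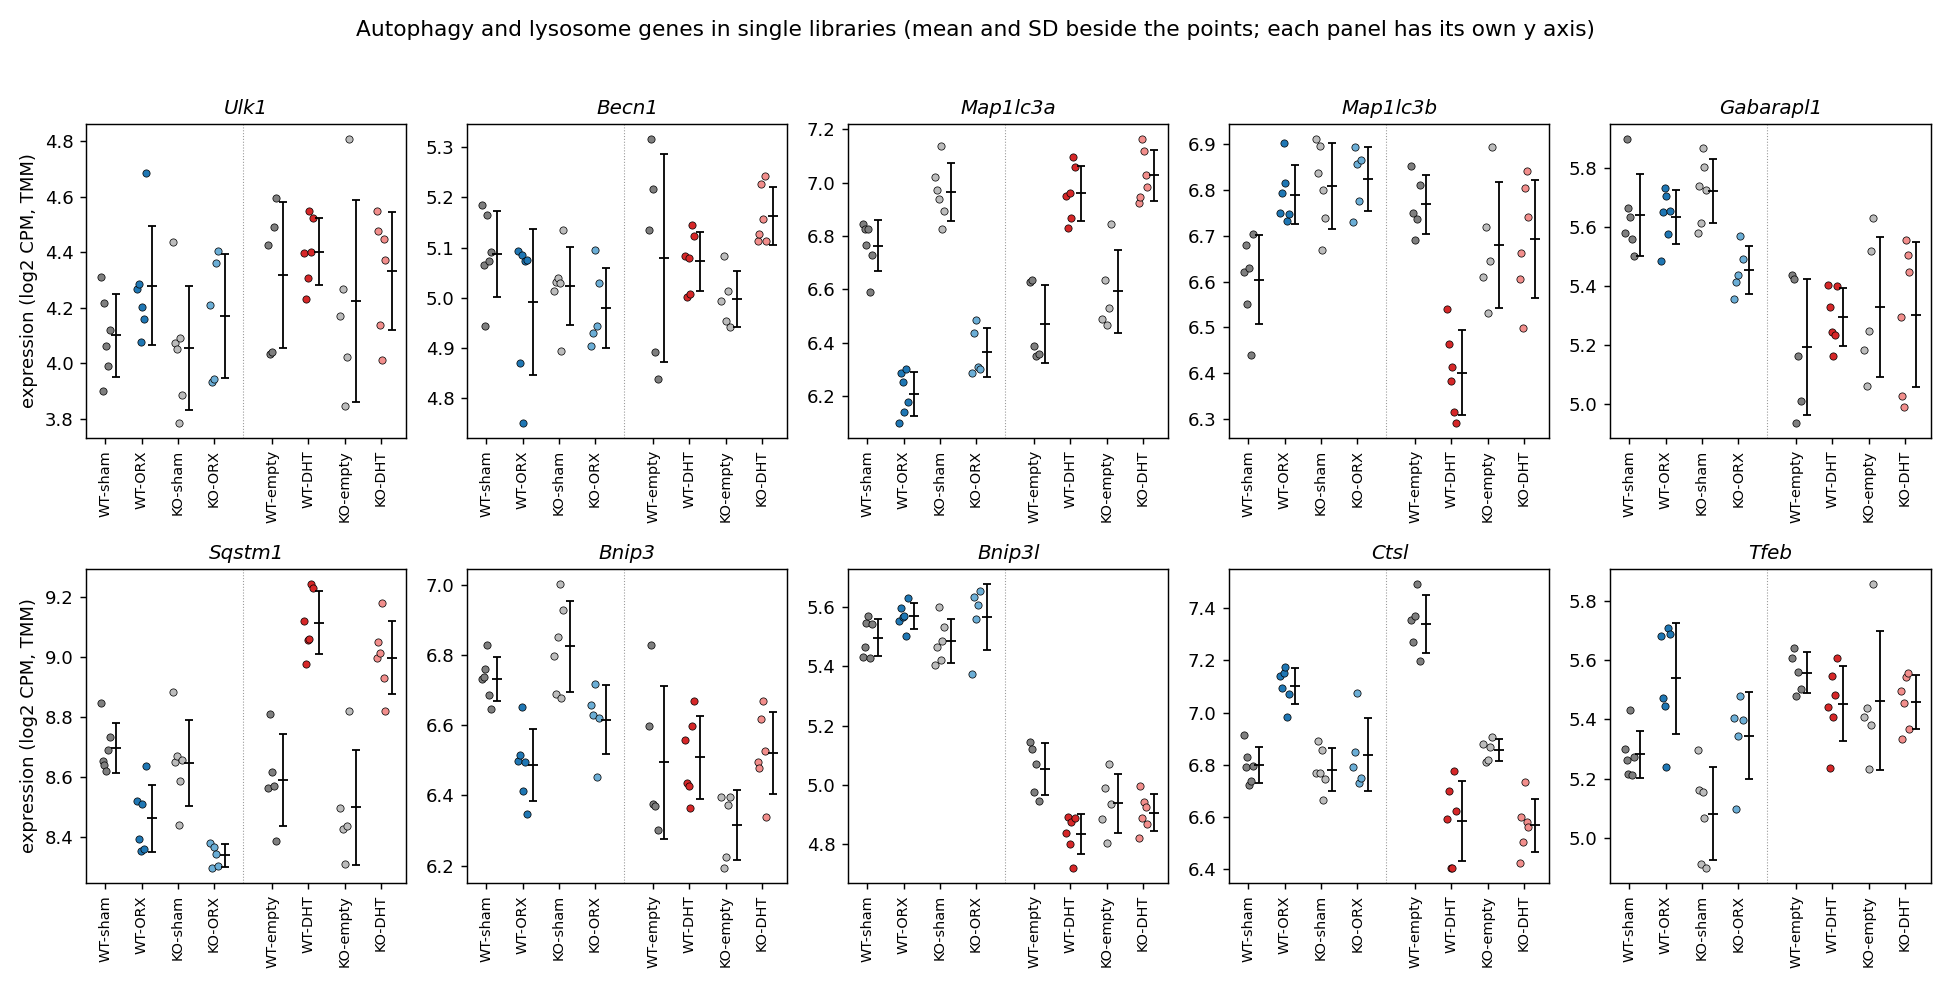
Expression of each of the 10 genes in every library (y axis, log2 CPM after TMM normalization; x axis, the 8 groups), with the mean and SD drawn beside the points. Within each genotype *Map1lc3a* is lower in all ORX than in all sham libraries and higher in all DHT than in all empty-implant libraries, while *Ctsl* has its highest group mean in WT-empty.

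Changes are given as log2 fold changes from edgeR's quasi-likelihood test with TMM normalization, and q is its p-value with Benjamini-Hochberg adjustment over all genes of the table. A gene was called at q of 0.01 or below for treatment and genotype, and at 0.05 or below for the interaction, which is the difference of the KO and WT treatment effects. With ORX, 3 of the 10 genes were called in WT (5.45% of all genes were called) and 3 of 10 in KO (5.57% of all genes). With DHT, 5 of 10 were called in WT (11.3% of all genes) and 3 of 10 in KO (4.62% of all genes). KO against WT gave 1 of 10 in sham (5.3% of all genes), 1 in ORX (3.8%), 1 in empty (4.25%) and 1 in DHT (11.6%). The interaction gave 2 of 10 for DHT (3.24% of all genes) and 0 of 10 for ORX (0.0228%, or 4 genes of the table). Beside that 0 by edgeR, 3 of the 10 genes had an unadjusted p under 0.05 (1683 of all 17514 genes), and DESeq2 and limma-voom also called 0. Of all 17514 genes, an unadjusted p under 0.05 by edgeR was found for 3907 with ORX in WT and 4288 in KO. For KO against WT it was 4082 in sham and 3313 in ORX. Of all 16987 genes it was 5070 with DHT in WT, 4278 in KO, 3969 for KO against WT in empty, 5034 in DHT and 2564 for the interaction. Unadjusted counts given below stand beside these.

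*Ulk1* and *Becn1*, which start autophagy, were called in none of the 10 comparisons by edgeR. *Ulk1*, the kinase, had group means between 4.05 log2 CPM in KO-sham and 4.40 in WT-DHT, with SDs from 0.12 to 0.36. Its log2 fold change was 0.19 ± 0.11 (standard error) with ORX in WT (q = 0.317 by edgeR, above the WT-sham mean in 5 of 6 libraries) and 0.069 ± 0.14 with DHT in WT (q = 0.797 by edgeR, in 4 of 6). *Becn1*, the scaffold of the lipid kinase complex, had group means between 4.98 log2 CPM in KO-ORX and 5.16 in KO-DHT. All 6 KO-DHT libraries lay above all 5 KO-empty libraries, with a log2 fold change of 0.17 ± 0.069 that missed the threshold (q = 0.13 by edgeR). Exons of *Cntd1* on the opposite strand cover 43.9% of the exon bases of *Becn1*, and whether the counting used the strand is not stated, so reads of these genes may not have been separated.

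Of the ATG8 genes, *Map1lc3a* fell with ORX and rose with DHT in both genotypes. *Map1lc3a* (chromosome 2, 155276297 to 155278073 in GRCm38) encodes LC3A, which is attached to the growing membrane. Its lowest, median and highest log2 CPM were 6.59, 6.80 and 6.85 in WT-sham and 6.10, 6.22 and 6.30 in WT-ORX. In KO-sham they were 6.82, 6.96 and 7.13, and the 5 KO-ORX libraries had 6.29, 6.44, 6.49, 6.31 and 6.30. The ORX and sham libraries did not overlap in either genotype. The log2 fold change was −0.55 ± 0.055 in WT (a fold of 0.681; q = 6.1e-08 by edgeR, lower in 6 of 6 ORX libraries) and −0.60 ± 0.058 in KO (a fold of 0.659; q = 7.6e-08 by edgeR, lower in 5 of 5). The interaction was −0.047 ± 0.080 (q = 0.892 by edgeR), with a 95% interval from −0.20 to 0.11.

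With DHT the direction of *Map1lc3a* was the other one. The 5 WT-empty libraries had log2 CPM of 6.63, 6.63, 6.39, 6.35 and 6.36, and the WT-DHT libraries lay between 6.83 and 7.09 with a median of 6.95. The 5 KO-empty libraries had 6.49, 6.63, 6.47, 6.53 and 6.84, and the KO-DHT libraries lay between 6.92 and 7.16 with a median of 7.01. No DHT library overlapped the empty libraries of its genotype. *Map1lc3a* rose by 0.49 ± 0.076 in WT (q = 4.4e-05 by edgeR, higher in 6 of 6) and by 0.43 ± 0.076 in KO (q = 5.8e-04 by edgeR, higher in 6 of 6), with an interaction of −0.055 ± 0.11 (q = 0.868 by edgeR). KO against WT was not called for *Map1lc3a*, and its values there were 0.20 in sham (q = 0.0166 by edgeR, higher in 6 of 6), 0.15 in ORX, 0.12 in empty and 0.067 in DHT. The sham difference passed with DESeq2 (q = 0.0043) and without KO-sham 5 (q = 0.0074), within a range of 0.0043 to 0.0527 over all alternatives.

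*Map1lc3b* (chromosome 8, 121590361 to 121598760 in GRCm38), which encodes the LC3B often used to mark autophagosomes, fell with DHT in WT and not detectably in KO. Its log2 CPM in WT-empty was 6.85, 6.75, 6.69, 6.74 and 6.81, and in WT-DHT it lay between 6.29 and 6.54 with a median of 6.40. In KO-empty it was 6.61, 6.72, 6.53, 6.64 and 6.89, and in KO-DHT it lay between 6.50 and 6.84 with a median of 6.70. The WT groups did not overlap, and the KO groups did. In WT the fall of *Map1lc3b* was −0.37 ± 0.069 (q = 3.6e-04 by edgeR, lower in 6 of 6), against 0.012 ± 0.069 in KO (q = 0.943 by edgeR). The interaction was 0.38 ± 0.097 (q = 0.0287 by edgeR). This interaction passed 0.05 narrowly, since q was 0.0511 to 0.0640 on leaving out any 1 of WT-empty 1, WT-DHT 3, KO-empty 1, 3 or 4, or KO-DHT 4 or 5, and 0.0669 with library-size scaling, within a range of 0.0066 to 0.0669 over all alternatives. KO-DHT was above WT-DHT by 0.29 ± 0.066 (q = 0.0022 by edgeR, higher in 6 of 6, though the groups overlapped).

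In the ORX experiment *Map1lc3b* was higher in KO-sham than in WT-sham. Its lowest, median and highest log2 CPM were 6.44, 6.63 and 6.70 in WT-sham, 6.67, 6.82 and 6.91 in KO-sham, and 6.73, 6.77 and 6.90 in WT-ORX. The KO-ORX libraries had 6.73, 6.89, 6.86, 6.78 and 6.87. KO-sham and WT-sham overlapped. The KO-sham value was higher by 0.20 ± 0.050 (q = 0.0073 by edgeR, above the WT-sham mean in 6 of 6), and the KO-sham libraries were also the smaller ones. This call was lost with library-size scaling (0.18, q = 0.0239), with the replicate number as a block (q = 0.0106), and on leaving out any 1 of KO-sham 1, 2, 3 or 5 or WT-sham 1, 3, 4 or 5 (q from 0.0114 to 0.0259, within a range of 9.7e-04 to 0.0259 over all alternatives). With ORX in WT, *Map1lc3b* was 0.18 ± 0.050 higher with no overlap and missed the threshold (q = 0.0162 by edgeR, higher in 6 of 6), and the interaction with ORX was −0.17 ± 0.072 (q = 0.429 by edgeR). That WT difference passed with DESeq2 (q = 0.0078) and with library-size scaling (0.22, q = 0.0047), within a range of 0.0047 to 0.0506.

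The ratio of LC3A to LC3B messenger RNA within a library does not depend on the scaling between libraries. Its size depends on the exon lengths used, 1.18 kilobases for *Map1lc3a* and 7.52 for *Map1lc3b*, while its change between groups does not. Before division by length, the mean levels in WT-sham were 109 CPM for *Map1lc3a* and 97.4 CPM for *Map1lc3b*. Per kilobase of exon the mean ratio was 7.11 in WT-sham and 4.26 in WT-ORX, and 7.09 in KO-sham and 4.63 in KO-ORX. It was 5.18 in WT-empty and 9.38 in WT-DHT, and 5.99 in KO-empty and 8.03 in KO-DHT. On the log2 scale the ORX libraries, with highest values of 2.24 in WT and 2.30 in KO, all lay below the lowest sham values of 2.69 in both genotypes, and the DHT libraries, with lowest values of 3.04 in WT and 2.86 in KO, all lay above the highest empty values of 2.55 and 2.62.

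*Gabarapl1*, of the GABARAP branch, fell with ORX in KO. Its log2 CPM was between 5.58 and 5.87 in KO-sham (median 5.73), and 5.36 to 5.57 in the 5 KO-ORX libraries. The groups did not overlap. The log2 fold change was −0.27 ± 0.065 (q = 0.0071 by edgeR, lower in 5 of 5), against −0.0093 ± 0.062 in WT (q = 0.958 by edgeR), and the interaction of −0.26 ± 0.090 was not called (q = 0.316 by edgeR). With library-size scaling the KO change was −0.16 (q = 0.134), and leaving out any 1 of KO-sham 2, 4, 5 or 6 or KO-ORX 1, 2, 3 or 5 gave q from 0.0128 to 0.0264, within a range of 9.3e-04 to 0.134 over all alternatives. In the DHT experiment no comparison called *Gabarapl1*, whose group means were 5.19 to 5.33 log2 CPM with SDs up to 0.25. The transcript *1700101I11Rik* on the opposite strand covers 28.3% of its exon bases.

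Of the receptors, *Sqstm1* (chromosome 11, 50199366 to 50210827 in GRCm38) rose with DHT in both genotypes and fell with ORX in KO. It encodes p62, which binds ubiquitin on cargo and is itself degraded by autophagy. The WT-empty libraries had log2 CPM of 8.56, 8.81, 8.62, 8.57 and 8.38, and the WT-DHT libraries lay between 8.98 and 9.24 with a median of 9.09. The KO-empty libraries had 8.50, 8.43, 8.31, 8.44 and 8.82, and the KO-DHT libraries lay between 8.82 and 9.18 with a median of 9.0. The WT groups did not overlap, and the KO groups met at the highest KO-empty and the lowest KO-DHT library. *Sqstm1* rose by 0.52 ± 0.086 in WT (q = 8.0e-05 by edgeR, 6 of 6) and by 0.49 ± 0.086 in KO (q = 4.9e-04 by edgeR, 6 of 6), and the interaction was −0.029 ± 0.12 (q = 0.948 by edgeR).

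With ORX, *Sqstm1* went the other way. Its lowest, median and highest log2 CPM were 8.44, 8.65 and 8.88 in KO-sham, and the KO-ORX libraries had 8.38, 8.29, 8.37, 8.34 and 8.30. The KO groups did not overlap. The log2 fold change in KO was −0.31 ± 0.062 (q = 0.0014 by edgeR, lower in 5 of 5), and with library-size scaling it was −0.20 and no longer called (q = 0.0215, the highest of a range from 3.1e-05). In WT, *Sqstm1* had 8.62, 8.67 and 8.84 with sham and 8.35, 8.45 and 8.64 with ORX. These groups overlapped, and the change of −0.23 ± 0.059 lay just outside the threshold (q = 0.0103 by edgeR, lower in 6 of 6). It passed with DESeq2 (q = 0.0025), with limma-voom (q = 0.0068), with the replicate number as a block (q = 0.0034), and on leaving out KO-sham 1 (q = 0.0034), KO-sham 4 (q = 0.0055), KO-sham 5 (q = 0.0078) or WT-ORX 6 (q = 0.0038), within a range of 0.0025 to 0.0353 over all alternatives. The interaction was −0.082 ± 0.086 (q = 0.8 by edgeR). Exons of *Mrnip* on the opposite strand cover 17.3% of *Sqstm1*.

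*Bnip3* and *Bnip3l* encode receptors on the outer membrane of mitochondria that bring them to autophagosomes. *Bnip3* fell with ORX in WT, from a lowest, median and highest log2 CPM of 6.65, 6.73 and 6.83 to 6.35, 6.50 and 6.65. The groups overlapped. The log2 fold change was −0.24 ± 0.058 (q = 0.0059 by edgeR, lower in 6 of 6), and −0.21 ± 0.061 in KO (q = 0.0232 by edgeR, lower in 5 of 5), with an interaction of 0.032 ± 0.084 (q = 0.942 by edgeR). The WT call was lost with library-size scaling (−0.20, q = 0.0313) and on leaving out any 1 of WT-sham 1 to 4 or WT-ORX 1, 4, 5 or 6 (q from 0.0108 to 0.0200, within a range of 9.7e-04 to 0.0313 over all alternatives). The KO difference passed with DESeq2 (q = 0.0069) and without KO-sham 5 (q = 0.0083), within a range of 0.0069 to 0.272. With DHT the change of *Bnip3* was 0.0046 ± 0.084 in WT and 0.21 ± 0.085 in KO (q = 0.125 by edgeR, higher in 6 of 6). An antisense transcript, *Gm45507*, covers 22.3% of its exon bases.

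*Bnip3l* fell with DHT in WT. The WT-empty libraries had log2 CPM of 5.15, 5.12, 4.98, 5.07 and 4.95, and the WT-DHT libraries lay between 4.72 and 4.89 with a median of 4.85. The groups did not overlap. The log2 fold change was −0.22 ± 0.057 (q = 0.0072 by edgeR, lower in 6 of 6), against −0.033 ± 0.057 in KO (q = 0.778 by edgeR), and the interaction of 0.19 ± 0.080 was not called (q = 0.262 by edgeR). The call was lost with library-size scaling (−0.29, q = 0.0112) and on leaving out any 1 of WT-empty 1, 2 or 4 or WT-DHT 1, 3 or 5 (q from 0.0137 to 0.0218, within a range of 0.0027 to 0.0218 over all alternatives). No ORX or genotype comparison called *Bnip3l*. A pseudogene, *Bnip3l-ps*, may share reads with it, so its counts are uncertain to that extent.

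In the lysosome, *Ctsl* (chromosome 13, 64359337 to 64370890 in GRCm38) had the largest change of the 10 genes over all 10 comparisons, with DHT in WT. It encodes cathepsin L, a cysteine protease that digests the contents of the lysosome. Its log2 CPM was 7.36, 7.27, 7.37, 7.49 and 7.20 in WT-empty and lay between 6.40 and 6.78 in WT-DHT with a median of 6.61. In KO-empty it was 6.88, 6.81, 6.82, 6.87 and 6.91, and in KO-DHT it lay between 6.42 and 6.73 with a median of 6.57. DHT and empty libraries overlapped in neither genotype, and all KO-empty libraries lay below all WT-empty libraries. The change of *Ctsl* was −0.75 ± 0.070 in WT (a fold of 0.594; q = 1.4e-08 by edgeR, lower in 6 of 6) and −0.29 ± 0.070 in KO (a fold of 0.819; q = 0.0089 by edgeR, lower in 6 of 6).

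The interaction of genotype and DHT for *Ctsl* was 0.46 ± 0.099 (q = 0.0069 by edgeR), and it kept its call in all alternatives run (q from 4.2e-04 to 0.0172). KO-empty was below WT-empty, at −0.48 ± 0.073 (q = 1.3e-04 by edgeR, lower in 5 of 5), whereas KO-DHT against WT-DHT was −0.020 ± 0.067 (q = 0.893 by edgeR). The DHT change within KO was the less firm of these. It was lost with library-size scaling (−0.32, q = 0.0203) and on leaving out any 1 of WT-DHT 1, KO-empty 1 to 5 or KO-DHT 1, 2, 3, 5 or 6 (q from 0.0112 to 0.0226, within a range of 0.0018 to 0.0226 over all alternatives).

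With ORX, *Ctsl* rose in WT. Its lowest, median and highest log2 CPM were 6.72, 6.79 and 6.91 in WT-sham, 6.98, 7.12 and 7.17 in WT-ORX, and 6.66, 6.77 and 6.89 in KO-sham. The KO-ORX libraries had 6.79, 6.85, 7.07, 6.73 and 6.75. The WT groups did not overlap, and the KO groups did. *Ctsl* rose by 0.30 ± 0.054 in WT (q = 3.0e-04 by edgeR, higher in 6 of 6), against 0.061 ± 0.057 in KO (q = 0.556 by edgeR), and the interaction of −0.24 ± 0.078 was not called (q = 0.257 by edgeR). KO-ORX was below WT-ORX, at −0.26 ± 0.057 (q = 0.0038 by edgeR, lower in 5 of 5, with an overlap of the groups). That call was lost with library-size scaling (−0.21, q = 0.0168) and on leaving out any 1 of KO-ORX 1, 2, 4 or 5 or WT-ORX 4 (q up to 0.0180, within a range from 1.5e-04 to 0.0180 over all alternatives). An antisense transcript, *Gm47123*, covers 26.8% of the exon bases of *Ctsl*, and the pseudogene *Gm49230* on the same strand covers 6.09%.

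Macrophages are rich in lysosomes and express *Ctsl*, so their markers are given beside it. All 12 macrophage markers were in both tables, none had 0 counts in a library, and *Lyz2*, which encodes lysozyme, was the most abundant in each group. Their summed level was 254, 195, 281, 212 and 213 CPM in WT-empty and between 203 and 335 in WT-DHT, and 264, 173, 243, 443 and 240 CPM in KO-empty and between 222 and 288 in KO-DHT. With DHT 0 of the 12 were called by edgeR in either genotype (0 in WT and 1 in KO had an unadjusted p under 0.05). With TMM 10 of 12 had a positive change with DHT in WT (median 0.15), where *Ctsl* fell, and 5 of 12 in KO (median −0.12). KO against WT in empty, where *Ctsl* was lower in KO, gave 11 of 12 positive (median 0.19), with 0 called by edgeR and 1 at an unadjusted p under 0.05. The interaction with DHT was positive for 1 of 12 (median −0.20), with 0 called by edgeR and 0 at an unadjusted p under 0.05. In the ORX experiment the summed level was between 246 and 290 CPM in WT-sham, 218 and 258 in WT-ORX and 190 and 288 in KO-sham, and 253, 207, 224, 197 and 221 in KO-ORX. *Csf1r*, the receptor of a macrophage growth factor, was the 1 marker called with ORX in WT (−0.31, q = 0.0041 by edgeR, lower in 6 of 6), where *Ctsl* rose, and *C1qa*, a complement gene, was the 1 called lower in KO-ORX than in WT-ORX (−0.48, q = 0.00896 by edgeR, lower in 5 of 5), where *Ctsl* was lower too. Each is 1 of 12 markers (8.33%), against 5.45% of all genes with ORX in WT and 3.8% for KO against WT in ORX. With TMM 3 of 12 had a positive change with ORX in WT (median −0.14) and 6 of 12 in KO (median 0.0071). KO against WT in ORX gave 4 of 12 positive (median −0.10). At an unadjusted p under 0.05 by edgeR there were 3, 2 and 2 in these comparisons. In bulk tissue, fewer cells of a type and less RNA per cell cannot be told apart. The part of macrophages in these results was not tested.

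*Tfeb*, the transcription factor of lysosomal genes, was called in no comparison by edgeR. With ORX its log2 fold change was 0.27 ± 0.078 in WT (q = 0.0279 by edgeR, higher in 5 of 6) and 0.26 ± 0.083 in KO (q = 0.0385 by edgeR, higher in 5 of 5). Its lowest, median and highest log2 CPM were 5.21, 5.27 and 5.43 in WT-sham and 5.24, 5.58 and 5.71 in WT-ORX, and the groups overlapped. With library-size scaling the KO change was called (0.37, q = 0.0052), and without WT-ORX 4 the WT change was (0.32, q = 0.0055), within ranges of 0.0052 to 0.115 in KO and 0.0055 to 0.0732 in WT. With DHT the changes of *Tfeb* were −0.10 ± 0.084 in WT and −0.017 ± 0.084 in KO. No other gene overlaps its exons in the annotation.

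**Figure D2:**
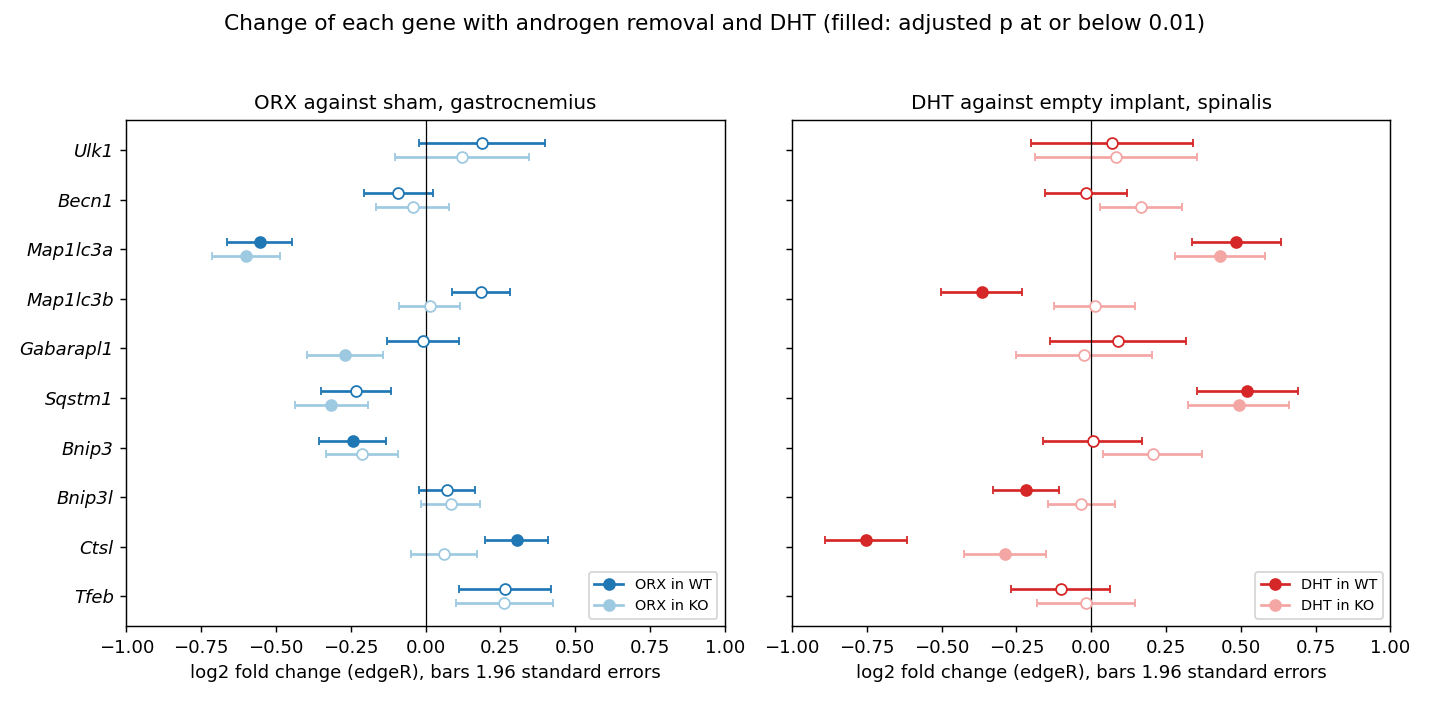
Log2 fold change of each of the 10 genes (y axis) with ORX in gastrocnemius and with DHT in spinalis (x axes), in WT and KO, with bars for the 95% interval and filled points where the change was called. *Map1lc3a* is at −0.55 and −0.60 with ORX and at 0.49 and 0.43 with DHT, and *Ctsl* is at −0.75 with DHT in WT and −0.29 in KO.

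Some markers of other cells were also called with DHT. The adipocyte markers (5 of 5 in the tables, *Cfd* the most abundant, none at 0 counts) summed to 654, 422, 291, 618 and 484 CPM in WT-empty and to between 107 and 469 in WT-DHT, and *Cfd*, which encodes adipsin, fell (−1.20, q = 0.00898 by edgeR, lower in 6 of 6). In KO-empty they summed to 675, 356, 530, 621 and 531 CPM and in KO-DHT to between 194 and 546, with 0 of 5 called by edgeR and 3 of 5 at an unadjusted p under 0.05, and the interaction for *Cfd* was 0.40 ± 0.45 (q = 0.738 by edgeR). Of 6 endothelial markers, led by *Pecam1*, *Pecam1* and *Tie1* rose in WT (0.33 and 0.45) and *Tie1* in KO (0.40). The endothelial sum was 177, 161, 182, 219 and 206 CPM in WT-empty against 210 to 260 in WT-DHT, and 218, 195, 230, 179 and 206 in KO-empty against 190 to 262 in KO-DHT. Of the 12 muscle fibre markers, 3 were called with ORX in each genotype, while with TMM 9 of 12 had a positive change in WT and 3 of 12 in KO. *Myh1*, the myosin of fast 2X fibres, fell by 0.61 in both WT (q = 0.00499 by edgeR, lower in 6 of 6) and KO (q = 0.0074 by edgeR, lower in 5 of 5). *Des*, which encodes the filament protein desmin, fell in WT (−0.31) and KO (−0.28), *Pvalb* rose in WT (0.29) and *Tnnt3* fell in KO (−0.20). The interaction with ORX was called by edgeR for 0 of the 12 fibre markers, with 3 at an unadjusted p under 0.05. With DHT, *Des* rose in WT (0.49), and 0 of 12 were called in KO by edgeR, with 7 at an unadjusted p under 0.05. In WT 5 of 12 had an unadjusted p under 0.05. With TMM 4 of 12 had a positive change with DHT in WT (median −0.066) and 5 of 12 in KO (median −0.050). The mean sum of the fibre markers was 291767 CPM in WT-empty and 255583 in WT-DHT, and 248737 in KO-empty and 230809 in KO-DHT.

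The 6 fibroblast markers were led by *Dcn* in the ORX experiment and by *Col3a1* in the DHT experiment, and none was at 0 counts in a library. They summed to between 2017 and 3385 CPM in WT-sham, 1905 and 2748 in WT-ORX and 1672 and 2657 in KO-sham. In KO-ORX the sums were 5240, 3641, 1786, 2382 and 1994 CPM, so that KO-ORX 1 and 2 lay above all libraries of the other 3 groups. With TMM, 1 of 6 had a positive change with ORX in WT (median −0.074) and 5 of 6 in KO (median 0.40), and the interaction was called by edgeR for 0 of 6, with 3 at an unadjusted p under 0.05. *Lum* rose with ORX in WT (0.59) and KO (0.57) while *Pdgfra* fell in WT (−0.23). With DHT, *Dcn* rose in WT (0.54) and KO (0.51), *Pdgfra* fell in WT (−0.44) and *Lum* fell in KO (−0.98). With TMM, 3 of 6 had a positive change with DHT in WT (median 0.16) and 2 of 6 in KO (median −0.45). At an unadjusted p under 0.05 there were 3 in WT and 5 in KO. The interaction with DHT was positive for 1 of 6 (median −0.39), with 0 called by edgeR and 3 at an unadjusted p under 0.05. The fibroblast sums were 1497, 1381, 2233, 2066 and 1831 CPM in WT-empty against 1609 to 3372 in WT-DHT, and 3629, 1765, 2700, 2079 and 1846 in KO-empty against 1785 to 2427 in KO-DHT. Of 3 satellite cell markers (*Pax7*, *Myf5* and *Vcam1*), 0 were called by edgeR with either treatment in either genotype. In WT 3 of 3 had a positive change with ORX and 0 of 3 with DHT, with 2 at an unadjusted p under 0.05 for each treatment. In KO 3 of 3 had a positive change with ORX and 1 of 3 with DHT, with 1 at an unadjusted p under 0.05 for each. Their mean sum was 8.92 CPM in WT-sham and 11.5 in WT-ORX, 11.8 in KO-sham and 13.6 in KO-ORX, 9.85 in WT-empty and 7.32 in WT-DHT, and 13.3 in KO-empty and 11.6 in KO-DHT, with *Vcam1* the most abundant. Of 5 red blood cell markers, led by *Hbb-bs* and none at 0 counts in a library, 0 were called by edgeR in any comparison. With DHT and TMM 5 of 5 had a positive change in WT (median 0.72) and 0 of 5 in KO (median −0.51), with 1 at an unadjusted p under 0.05 in each genotype. KO against WT in empty gave 5 of 5 positive (median 0.92) and the interaction with DHT 0 of 5 (median −1.27), with 4 at an unadjusted p under 0.05 in each. Their sums were 173, 115, 66.8, 143 and 275 CPM in WT-empty against 155 to 383 in WT-DHT, and 281, 99.9, 168, 704 and 158 in KO-empty against 153 to 217 in KO-DHT, with KO-empty 4 above all other libraries of that experiment. With ORX 0 of 5 were positive in WT (median −0.41) and 4 of 5 in KO (median 0.0097), with 2 and 0 at an unadjusted p under 0.05. Of 4 markers of Schwann cells and neurons, 0 were called by edgeR in any comparison, with at most 1 at an unadjusted p under 0.05. The part of these cells and fibre types in the autophagy results was not tested.

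The wider list held 155 genes of autophagy and the lysosome, with all 10 members among them, and 154 were in the ORX table. With ORX, 16 of 154 were called in WT (10.4%; 5 higher, 11 lower), against 5.45% of all genes (358 higher, 597 lower). In KO 15 of 154 were called (9.74%; 2 higher, 13 lower), against 5.57% of all genes (348 higher, 627 lower). The balance of directions depends on the scaling. With library-size scaling 6 were higher and 7 lower in WT, and 6 were higher and 3 lower in KO, where that scaling moved the median of all genes by 0.11. Of all called genes, 37.5% were higher in WT with TMM and 54.4% with library-size scaling, and in KO 35.7% and 78.6%. With TMM the listed genes had a median change of −0.0037 for WT and −0.032 for KO, while all genes had 0.013 and 0.014. By sub-list, the calls in WT were 3 of 14 cargo receptors (*Optn*, *Bnip3*, *Pink1*), 2 of 11 fusion genes (*Rab7*, *Snap29*) and 3 of 30 inputs from mTORC1 and AMPK (*Sesn1*, *Deptor*, *Rragd*). In KO these were 2 of 14 (*Sqstm1*, *Optn*), 3 of 11 (*Rab7*, *Snap29*, *Vamp8*) and 3 of 30 (*Sesn1*, *Sesn3*, *Rragd*). Of 30 hydrolases, *Ctsl* and *Ctsd* were called in WT and *Ctsd* in KO, and of 16 V-ATPase genes *Atp6v0a1* and *Atp6v1h* in WT and *Atp6v0a2* in KO. In both genotypes the calls were *Atg4a* of 17 genes of ATG8 conjugation and membrane supply, *Npc1* of 15 lysosomal membrane genes and *Mitf* of 3 genes of the TFEB family. Of 5 ATG8 genes *Map1lc3a* was called in both and *Gabarapl1* in KO. The initiation kinase complex (0 of 5) and the PI3-kinase complex (0 of 8) had no call by edgeR in either genotype, with 2 and 2 genes in WT and 2 and 1 in KO at an unadjusted p under 0.05.

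*Sesn1*, which encodes a leucine sensor that restrains mTORC1, had the largest change of the listed genes called with ORX. Its log2 CPM lay between 4.54 and 4.91 in WT-sham and between 5.47 and 5.87 in WT-ORX, and its log2 fold change was 1.08 ± 0.071 in WT (q = 2.1e-11 by edgeR) and 1.06 ± 0.074 in KO (q = 1.6e-10 by edgeR). For this and every other call of a listed gene given below with treatment or genotype, all libraries of the treated or KO group lay on the same side of the mean of the other group. *Npc1*, the cholesterol transporter of the lysosomal membrane, fell with ORX by 0.89 ± 0.088 in WT (q = 4.9e-08 by edgeR) and by 0.73 ± 0.094 in KO (q = 8.3e-06 by edgeR). *Pink1*, the kinase that marks damaged mitochondria, was the most abundant cargo gene of the list (279 CPM per kilobase over the ORX experiment) and rose in WT by 0.46 ± 0.065 (q = 1.6e-05 by edgeR). In KO its change was 0.076 ± 0.068 (q = 0.542 by edgeR), and the interaction of −0.39 ± 0.094 was not called (q = 0.11 by edgeR).

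*Snap29* and *Rab7* serve the fusion of autophagosomes and lysosomes, and both fell with ORX in both genotypes. *Snap29* changed by −0.40 ± 0.061 in WT (q = 4.7e-05 by edgeR) and −0.33 ± 0.064 in KO (q = 0.0012 by edgeR), and *Rab7* by −0.37 ± 0.067 in WT (q = 4.5e-04 by edgeR) and −0.38 ± 0.071 in KO (q = 9.2e-04 by edgeR). *Optn*, a receptor of mitochondria and bacteria, fell by 0.46 ± 0.074 in WT (q = 8.6e-05 by edgeR) and by 0.35 ± 0.078 in KO (q = 0.0036 by edgeR). *Atg4a*, the protease that trims ATG8 proteins, fell by 0.31 ± 0.054 in WT (q = 2.3e-04 by edgeR) and by 0.34 ± 0.057 in KO (q = 2.2e-04 by edgeR). Library-size scaling ended the KO calls of *Snap29* (−0.22, q = 0.0352, the highest of a range from 3.8e-05) and *Atg4a* (−0.24, q = 0.0224, the highest of a range from 8.2e-07).

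Genotype and ORX showed an interaction by edgeR in 0 of 154 listed genes. At an unadjusted p under 0.05 by edgeR there were 14 of 154, against 1683 of all 17514 genes. DESeq2 called 2 of the list and limma-voom called 0.

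With DHT, 29 of 155 were called in WT (18.7%; 13 higher, 16 lower), against 11.3% of all genes (1126 higher, 788 lower). In KO 7 of 155 were called (4.52%; 5 higher, 2 lower), near the 4.62% of all genes (486 higher, 298 lower). Library-size scaling gave 9 higher and 21 lower in WT and 4 higher and 1 lower in KO. Of all called genes, it moved the share that was higher from 58.8% to 43.6% in WT and from 62.0% to 58.2% in KO. The median change of the list was 0.012 in WT and 0.0026 in KO, and that of all genes was −0.0063 and −0.011. *Npc1* rose by 1.32 ± 0.096 in WT (q = 2.3e-10 by edgeR) and by 0.73 ± 0.096 in KO (q = 1.3e-05 by edgeR), and *Sesn1* fell by 1.14 ± 0.12 in WT (q = 1.9e-07 by edgeR) and by 0.72 ± 0.12 in KO (q = 3.8e-04 by edgeR). *Vamp8*, a fusion SNARE, rose by 0.65 ± 0.075 in WT (q = 4.4e-07 by edgeR) and by 0.45 ± 0.074 in KO (q = 2.5e-04 by edgeR). *Snap29* rose by 0.30 ± 0.067 in both WT (q = 0.0020 by edgeR) and KO (q = 0.0051 by edgeR). The KO call of *Snap29* was lost with library-size scaling (0.27, q = 0.0507) and on leaving out any 1 of KO-empty 1, 2 or 4 or KO-DHT 1, 2 or 4 (q from 0.0103 to 0.0179, within a range of 6.6e-04 to 0.0507). *Atg4a* rose in WT by 0.66 ± 0.085 (q = 3.1e-06 by edgeR), against 0.33 ± 0.085 in KO (q = 0.0133 by edgeR), with an interaction of −0.33 ± 0.12 (q = 0.163 by edgeR). *Optn* rose in WT by 0.52 ± 0.082 (q = 4.3e-05 by edgeR), against 0.28 ± 0.082 in KO (q = 0.0316 by edgeR), with an interaction of −0.25 ± 0.12 (q = 0.306 by edgeR). Of the 30 lysosomal hydrolases, 7 were called in WT (23.3%, against 11.3% of all genes; 3 higher, 4 lower). In KO *Ctsl* was the 1 of 30 called (3.33%, against 4.62% of all genes).

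Genotype and DHT showed an interaction in 8 of 155 listed genes (5.16%, against 3.24% of all genes; 6 higher, 2 lower, and 6 and 1 with library-size scaling). Of all genes with a called interaction, 41.5% were positive with TMM and 55.1% with library-size scaling. The 8 listed genes were *Map1lc3b*, *Ctsl*, 2 subunits of the energy sensor AMPK, *Npc1*, *Pink1*, *Ctsz* and, singled out after its values were seen, the V-ATPase subunit *Atp6v1b2* (0.42 ± 0.11, q = 0.0308 by edgeR). *Prkag3*, the muscle γ subunit of AMPK, had a mean of 7.17 log2 CPM in WT-empty and 6.39 in WT-DHT, against 7.41 in KO-empty and 7.74 in KO-DHT. The interaction of *Prkag3* was 1.09 ± 0.18 (q = 6.3e-04 by edgeR). *Prkab2*, a β subunit, had 8.21 and 7.90 in WT against 7.85 and 8.03 in KO, with an interaction of 0.48 ± 0.092 (q = 0.00303 by edgeR). *Npc1* had 5.35 and 6.67 in WT against 4.78 and 5.50 in KO, with an interaction of −0.59 ± 0.13 (q = 0.0113 by edgeR). The interaction was 0.52 ± 0.13 for *Pink1* (q = 0.0248 by edgeR) and −0.40 ± 0.10 for *Ctsz*, which encodes cathepsin Z (q = 0.0277 by edgeR). The *Pink1* call was lost on leaving out any 1 of WT-DHT 3, WT-empty 2 or KO-empty 1, 3 or 4 (q up to 0.0579, within a range from 0.0057 to 0.0579). The *Ctsz* call was lost on leaving out any 1 of WT-empty 5, WT-DHT 1, KO-empty 1 or 4 or KO-DHT 5 (q from 0.0501 to 0.0659) and with library-size scaling (−0.36, q = 0.158), within a range of 0.0043 to 0.158.

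KO against WT called 10 of 154 genes in sham (6.49%, against 5.3% of all genes; 6 higher, 4 lower) and 6 of 154 in ORX (3.90%, against 3.8%; 1 higher, 5 lower). It called 8 of 155 in empty (5.16%, against 4.25%; 3 higher, 5 lower) and 24 of 155 in DHT (15.5%, against 11.6%; 17 higher, 7 lower). With library-size scaling the sham calls were 1 higher and 6 lower, the ORX calls 2 and 2, and the DHT calls 21 and 4. In empty they were 2 higher and 3 lower. Among all called genes that scaling moved the share higher in KO from 46.8% to 38.5% in sham, 28.2% to 46.9% in ORX, 41.3% to 52.9% in empty and 44.1% to 65.3% in DHT. *Npc1* was lower in KO in each of these comparisons, by −0.75 ± 0.088 in sham, −0.58 ± 0.094 in ORX, −0.57 ± 0.099 in empty and −1.16 ± 0.090 in DHT. *Sesn3*, a sestrin like *Sesn1*, was higher in KO in each, by 0.42 ± 0.066 in sham (q = 9.3e-05 by edgeR), 0.55 ± 0.068 in ORX (q = 4.7e-06 by edgeR), 0.44 ± 0.11 in empty (q = 0.0092 by edgeR) and 0.67 ± 0.099 in DHT (q = 2.4e-05 by edgeR). *Flcn*, which encodes folliculin, a regulator of the lysosomal Rag GTPases, was lower in each, by −0.41 ± 0.059 in sham, −0.44 ± 0.062 in ORX, −0.44 ± 0.10 in empty (q = 0.0058 by edgeR) and −0.37 ± 0.091 in DHT (q = 0.0043 by edgeR). Its call in empty was lost with library-size scaling (−0.40, q = 0.0163) and on leaving out any 1 of WT-empty 1, 2, 3 or 5 or KO-empty 1, 3, 4 or 5 (q up to 0.0241, within a range from 7.0e-04 to 0.0241). *Optn* was lower in KO in sham (−0.37 ± 0.074, q = 0.0012 by edgeR), empty (−0.36 ± 0.085, q = 0.0076 by edgeR) and DHT (−0.61 ± 0.078, q = 2.9e-06 by edgeR), and its value in ORX was −0.27 ± 0.078 (q = 0.0355 by edgeR).

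Of 30 inputs from mTORC1 and AMPK, 5 were called for KO against WT in DHT (16.7%, against 11.6% of all genes). Of these, *Prkag3* and *Sesn3* were higher and *Tsc1*, *Flcn* and *Rragb* lower in KO. In sham 4 of 30 were called (13.3%, against 5.3% of all genes). In ORX 3 of 30 were called (10%, against 3.8%), and in empty 3 of 30 (10%, against 4.25%). *Prkag3* was higher in KO-DHT than in WT-DHT by 1.35 ± 0.12 (q = 2.0e-08 by edgeR) and *Tsc1*, a brake on mTORC1, was lower by −0.55 ± 0.062 (q = 5.1e-07 by edgeR). *Prkab2* was lower in KO in ORX (−0.31 ± 0.066, q = 0.0031 by edgeR) and in empty (−0.35 ± 0.068, q = 0.0019 by edgeR). Its ORX call was lost with library-size scaling (−0.27, q = 0.0157) and without KO-ORX 1 or 2 (q from 0.0143 to 0.0147), within a range of 2.7e-04 to 0.0157. Of the 16 genes of the V-ATPase, the proton pump that acidifies lysosomes, 5 were called in DHT (31.2%, against 11.6% of all genes). They were *Atp6v0a1*, *Atp6ap1*, *Atp6v1b2*, *Atp6v1e1* and *Atp6v1f*, all higher in KO by between 0.26 and 0.40. In sham 2 of 16 were called (12.5%, against 5.3% of all genes). In ORX and in empty 0 of 16 were called by edgeR (against 3.8% and 4.25%), with 3 at an unadjusted p under 0.05 in each. *Atp6v1e1* was also higher in KO-sham than in WT-sham by 0.23 ± 0.047 (q = 0.0014 by edgeR), and library-size scaling ended this call (0.21, q = 0.0162, the highest of a range from 3.0e-05). *Gabarap*, the ATG8 paralogue of *Gabarapl1*, was lower in KO-ORX than in WT-ORX by −0.24 ± 0.048 (q = 0.0014 by edgeR), and the same scaling ended this call (−0.20, q = 0.0514, the highest of a range from 3.5e-05). *Wipi1*, which binds the lipid of the growing membrane, and *Lgmn*, the lysosomal protease legumain, were higher in KO-empty than in WT-empty by 0.52 ± 0.089 and 0.41 ± 0.081.

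Some markers of muscle fibres and of other cells were also called between the genotypes. Of 12 muscle fibre markers, *Acta1* (−0.37) and *Des* (−0.28) were lower and *Myot* (0.56) higher in KO-sham than in WT-sham. In ORX, *Acta1* (−0.50), *Tnnt3* (−0.41), *Ckm* (−0.37) and *Des* (−0.25) were lower and *Myot* (0.40) higher in KO. In empty, *Tnnt3* was lower (−0.37), and in DHT, *Acta1* was lower (−0.51) and *Myot* higher (0.44). Adipocyte, endothelial and fibroblast markers had 0 calls by edgeR in these comparisons, with at most 3, 1 and 4 at an unadjusted p under 0.05. In sham, *Csf1r* was the 1 of 12 macrophage markers called lower in KO (−0.29). Of these 12 markers 0 had a positive change there (median −0.29), and 7 were at an unadjusted p under 0.05 by edgeR, against 4082 of all 17514 genes. Of the 3 satellite cell markers, *Myf5* was called higher in KO-sham (0.75), and *Pax7* (1.24) and *Myf5* (0.89) were called higher in KO-DHT, while KO against WT called 0 of 3 by edgeR in ORX and 0 of 3 in empty, with 1 at an unadjusted p under 0.05 in each. The part of these cells and of the smaller KO-sham libraries in the autophagy results was not tested.

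ORX and DHT share no library, so their changes may be set side by side. In WT, 8 of the 10 members and 108 of the 154 listed genes in both tables (70.1%) changed in opposite directions, against 10708 of all 16642 genes (64.3%). In KO it was 7 of 10 members, 107 of 154 listed genes (69.5%) and 10713 of 16642 genes (64.4%). Of the genes called in both experiments, 10 of 10 listed genes were opposite in WT, against 565 of 574 of all genes, and 6 of 6 in KO, against 302 of 302. *Map1lc3a* and *Ctsl* were the members called in both in WT, and *Map1lc3a* and *Sqstm1* in KO.

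**Figure D3:**
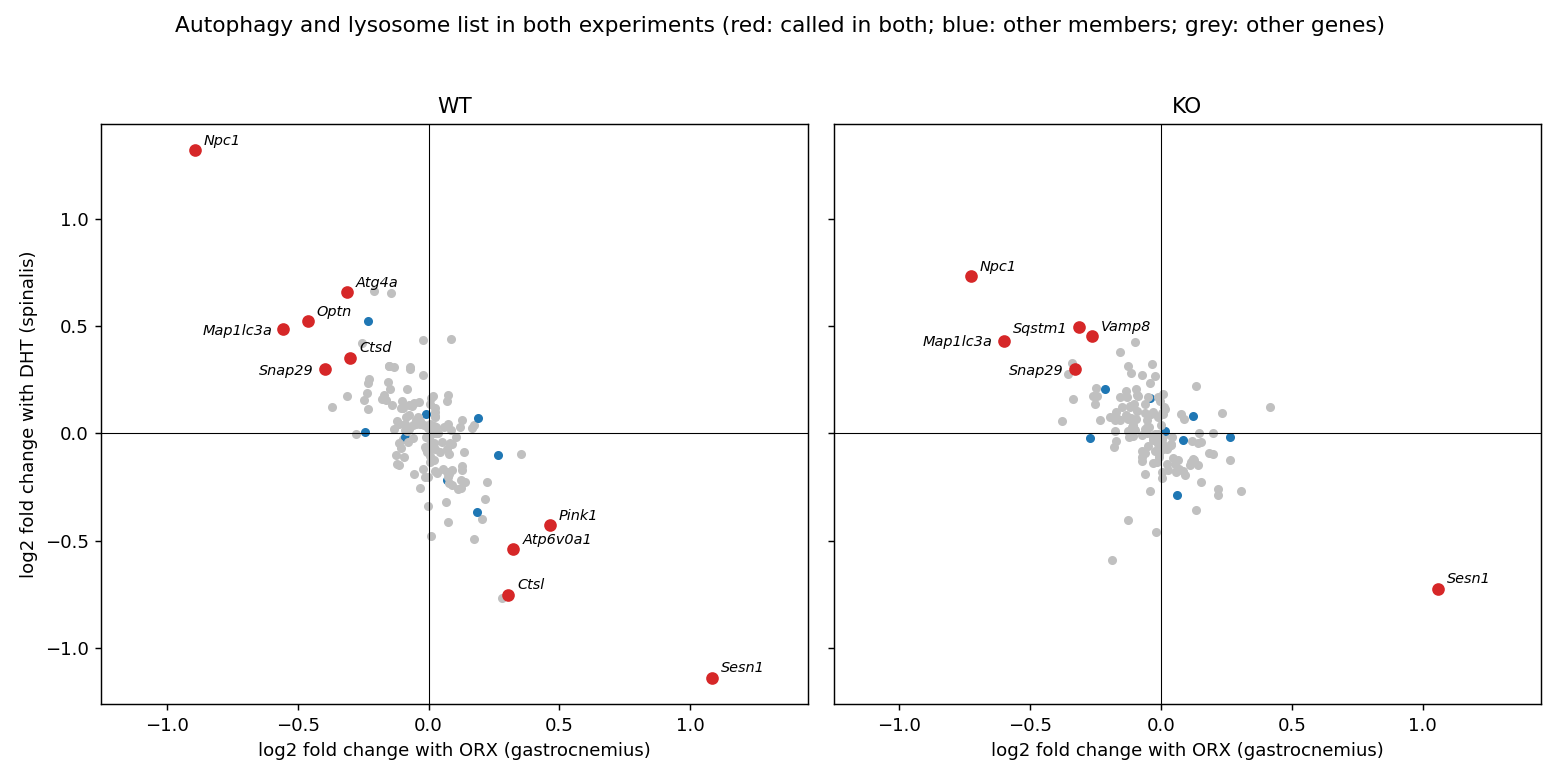
Log2 fold change with ORX in gastrocnemius (x axis) against that with DHT in spinalis (y axis) for the 154 listed genes in both tables, in WT and KO. Red points with names are all genes called in both, 10 in WT and 6 in KO, and each lies in a quadrant of opposite directions.

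After each gene's own mean over the 4 groups was subtracted, the genes whose group means varied most like those of *Map1lc3a* in the ORX experiment, among 3607 genes whose means ranged over at least 0.5, were *Dgat2*, *Gm13904* and *Myh1*, with root mean square differences of 0.014, 0.015 and 0.016 log2 units over the 4 group means. In the DHT experiment those most like *Ctsl*, among 5613 genes, were *Klf13*, *Rnf128* and *Zscan30*, at 0.021, 0.033 and 0.038. With 4 means a likeness of this size is a description.

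Promoters from 250 bases before to 50 after the start were taken from RefSeq (GRCm38.p6) for 7 of the 10 genes. CACGTG, the E-box core read by TFEB and related factors, was present in 2 of these 7 genes, *Bnip3* and *Ctsl*, in 31 of 127 listed genes (24.4%) and in 8.09% of all genes with a promoter. Its longer form TCACGTGA, which contains it, was in 0 of the 7, 12 of 127 listed genes (9.45%) and 1.12% of all genes. The FoxO core TGTTTAC and the androgen receptor half-site AGAACA were in 0 of the 7 on either strand, in 1.57% and 13.4% of the listed genes, and in 4.05% and 21.3% of all genes. A match is not a binding site, and no match says only that the letters are not in this window. The non-exonic promoter stretch of *Bnip3* (chr7:138909520-138909756, minus strand, between genes) and a window of *Ctsl* (chr13:64370739-64370768, minus strand, inside the *Ctsl* gene by GENCODE, with 15 of its 30 bases exonic) are shown because they carry the motif, in capitals, which begins 108 and 236 bases before the start. The stretch of *Map1lc3b* (chr8:121590188-121590360, plus strand, inside the gene model *Gm20388*), the other member called for the interaction of genotype and DHT, holds none of these motifs.
Bnip3: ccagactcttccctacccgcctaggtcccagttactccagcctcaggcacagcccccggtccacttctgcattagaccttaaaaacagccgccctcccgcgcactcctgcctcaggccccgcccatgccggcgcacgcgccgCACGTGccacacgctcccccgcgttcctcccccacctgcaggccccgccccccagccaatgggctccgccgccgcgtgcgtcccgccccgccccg
Ctsl: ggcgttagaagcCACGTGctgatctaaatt
Map1lc3b: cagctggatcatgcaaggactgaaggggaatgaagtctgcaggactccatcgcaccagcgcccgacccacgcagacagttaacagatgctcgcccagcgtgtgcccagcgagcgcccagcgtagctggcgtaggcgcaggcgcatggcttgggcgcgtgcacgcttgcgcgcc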

How the data were processed

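The authors made stranded total RNA libraries of whole muscle, aligned the reads with STAR 2.7.1b and counted them per gene with featureCounts (Subread 2.0.0). The deposited tables hold raw counts. The submitters' processing notes name GRCm39, and whether counting used the strand is not stated. Symbols (17433 of 17514 and 16920 of 16987 identifiers), exon lengths and positions came from GENCODE M21 (GRCm38). DHT columns show a group and an identifier found in no label, so their numbers here are column order and only a name.

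Each experiment was fitted with edgeR 4.0.16 (R 4.3.3), TMM and a mean per group, and tested by quasi-likelihood over all genes. Log2 CPM used a prior count of 2. The code was tested on simulated data. Alternatives were DESeq2 1.42.0, limma-voom (limma 3.58.1), library-size scaling, at least 10 counts in every library, other thresholds, a block for the replicate number and removal of each library. Those for named listed genes were added after seeing the data.

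The members, lists and markers were chosen with earlier results of these data known. Named from the list were the 5 called genes with the smallest adjusted p per comparison, the most abundant gene of a sub-list, and for 1 member per experiment the 3 genes with the most similar centred group means. Other listed genes, other comparisons of the named genes, and the markers were named after their values were seen and were not run under the alternatives.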

Additional observations from a re-analysis of the deposited data

Results flagged for a closer look

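In 1 of 80 groups of member and condition a library stood apart from the others by the gap to its nearest neighbour, where chance gives about 5% of groups. It was WT-ORX library 6 for *Ulk1*, at 4.69 log2 CPM, while the group's median was 4.24. The gap is taken per gene, so it can miss a library that is high across genes. KO-empty 5 was the highest of its group for *Map1lc3a*, *Map1lc3b*, *Gabarapl1*, *Sqstm1*, *Ulk1*, *Ctsl* and *Tfeb*, and the lowest for *Becn1*, with no flag. The fibre markers summed to 305512 CPM in KO-sham 1 and to 223149 in KO-sham 2, the next highest of that group. In WT-DHT 5 the 10 most counted genes held 43.2% of the counts, the highest share of all libraries. Its TMM factor of 0.846 was the lowest of all. Leaving out WT-DHT 5 ended no member's call but that of *Bnip3l* with DHT in WT, which leaving out some other libraries also ended.

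The DHT effect differed between KO and WT, by the interaction term in edgeR, for 2 members, at 0.38 for *Map1lc3b* and 0.46 for *Ctsl* on the log2 scale. Of the named genes of the wider list it differed by 1.09 for *Prkag3*, 0.48 for *Prkab2*, −0.59 for *Npc1*, 0.52 for *Pink1* and −0.40 for *Ctsz*. Positive values mean a higher change with DHT in KO than in WT. No explanation of these differences was tested.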

How the results depend on the processing

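Of the 20 pairs of member and comparison that were called, 20 kept their call with DESeq2, limma-voom, the filter of 10 counts and the looser thresholds, and 12 kept it with library-size scaling. Of their 448 values with 1 library left out, 395 kept the call, and the 53 lost belong to 7 pairs. The sign changed in 0 of these alternatives. Of the 80 pairs not called, 12 changed sign with library-size scaling, 2 with the filter, 1 with limma-voom, 1 with the block and 26 on leaving out some library. The 44 pairs of named listed genes, run under the same alternatives after seeing the data, had 0 changes of sign, 8 lost their call with library-size scaling and 5 on leaving out some library. The counts that moved most follow, and the cause was not tested. The share of all genes called under each of these settings is not given. These counts therefore cannot be read as more or fewer than that share.

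With DESeq2, 5 members were called for ORX in WT and 2 for KO against WT in sham, and the listed genes called were 16 in sham, 10 for KO against WT in ORX and 2 for genotype by ORX. With library-size scaling the members called were 0 in sham, 0 for KO against WT in ORX and 1 for genotype by DHT, and the listed genes 9 for ORX in KO and 5 for KO against WT in empty. With thresholds of 0.05 (0.1 for the interaction), the members were 6 for ORX in WT, 5 for ORX in KO and 2 in sham, and the listed genes 25 for ORX in WT, 26 for ORX in KO, 25 in sham, 13 for KO against WT in ORX, 19 for DHT in KO and 14 in empty, as more genes pass a looser threshold.

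Leaving out 1 library, the members called ranged from 0 to 1 in sham, 0 to 1 for KO against WT in ORX and 1 to 2 for genotype by DHT, and the listed genes from 9 to 16 for ORX in KO, 6 to 12 in sham, 5 to 8 in empty and 4 to 9 for genotype by DHT.

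No label says whether same-numbered ORX libraries share more than a number. Their deviations correlated above 0.1 in 3 of 6 pairs of WT-sham and WT-ORX and 2 of 6 of WT-sham and KO-sham. This held in 1 of 5 of KO-sham and KO-ORX, and in 0 in the other pairs of groups. The mean correlation was 0.044 for same and −0.0087 for different numbers between WT-sham and WT-ORX, and 0.063 and −0.013 between WT-sham and KO-sham. Same numbers were also higher between KO-sham and KO-ORX, and lower in the other pairs of groups. Such a check cannot exclude a block shared by same-numbered libraries. In no pair of groups did every library correlate best with its own number. With the replicate number as a block, 0 members were called for KO against WT in sham (*Map1lc3b*, q = 0.0106 by edgeR), no other member's call was lost, and *Sqstm1* with ORX in WT was called (q = 0.0034 by edgeR). No paired analysis was possible for DHT because its columns carry no label number.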

Other observations

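The most abundant gene of several sub-lists was not among the 10 members. *Psap*, which encodes the precursor of the saposins, led the hydrolases with 201 CPM per kilobase over the ORX experiment and 248 over the DHT experiment. *Laptm4a* led the lysosomal membrane genes with 166 and 132, and *Atp6v1g1* the V-ATPase with 107 and 87.8. *Ulk2*, the paralogue of *Ulk1*, led the initiation kinase complex with 25.0 and 25.5.

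These are messenger RNA levels of whole muscle. Lipidated LC3, p62 protein and lysosomal activity were not analysed here. ORX was studied in males and gastrocnemius and DHT in intact females and spinalis, so a difference between the experiments cannot be assigned to the hormone. Genes that overlap another gene on the opposite strand are uncertain where the counting did not use the strand. Changes of about 0.2 on the log2 scale were near the limit of what groups of 5 or 6 libraries called, and the choice of scaling ended 8 of the 20 calls.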
